A study of Mus musculus with 12 samples.

Results

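The 10 genes described here belong to the death signalling pathway and were measured in J774A.1 cells, a mouse macrophage line: the adaptors Tradd and Fadd, the kinases Ripk1 and Ripk3, the necroptosis executor Mlkl, the protease Casp8 and its inhibitor Cflar, and the inhibitor of apoptosis (IAP) genes Birc2, Birc3 and Xiap. The 10 were chosen by name and role in the pathway, with earlier results of these data known. Shares of these genes or of other pathway genes, set beside shares of all genes, are therefore descriptions only. The choice was from 17544 genes counted in unstimulated cells and 17874 after lipopolysaccharide (LPS). All 10 were listed in both tables and passed the filter on low counts in every fit. RNA was sequenced from 3 WT and 3 ACAT1 KO lines, without stimulation and after 2 hours with LPS at 100 ng/ml, giving 4 groups of 3 libraries. ACAT1 KO lines were made with Cas9 and a guide to the fourth exon of Acat1, a mitochondrial thiolase, and WT lines received the Cas9 vector without a guide. The study describes the lines of both genotypes as clonal, grown from sorted cells plated at a few per well. The labels name no clone. A difference between genotypes therefore includes what differs between clones.

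When tumor necrosis factor binds its receptor, TRADD and RIPK1 are recruited, and the ligases cIAP1 and cIAP2 (Birc2 and Birc3) attach ubiquitin chains to RIPK1 that carry survival signals to NF-kB. When this layer fails, FADD, caspase-8 and cFLIP (Cflar) assemble with RIPK1: active caspase-8 leads to apoptosis, the heterodimer of caspase-8 with cFLIP restrains both apoptosis and necroptosis, and loss of caspase-8 activity lets RIPK1 engage RIPK3, which phosphorylates MLKL to rupture the membrane. XIAP blocks effector caspases directly. In macrophages the receptor for LPS, TLR4, reaches RIPK3 through the adaptor TRIF, and Cflar and Birc3 are textbook NF-kB targets.

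Acat1 was lower in ACAT1 KO than in WT lines, with a log2 fold change of -1.87 without stimulation (adjusted p = 0.00876) and -2.08 after LPS (adjusted p = 7.87e-04), both by the quasi-likelihood test of edgeR adjusted by Benjamini-Hochberg over all genes, with no overlap of the libraries in either state. As a check of the LPS labels, Tnf, Nfkbia and Il1b rose in both genotypes, by 2.94 to 7.34 on the log2 scale, whereas Cxcl2 rose in ACAT1 KO cells by 1.45 (adjusted p = 0.00295) and differed by 0.53 in WT cells (adjusted p = 0.203). Macrophage markers were listed for 8 of 8 genes in both states, with summed levels of 10140 to 10564 CPM (counts scaled to the size of the library) in WT and 11210 to 12413 in ACAT1 KO lines without stimulation, and 7726 to 8173 and 8408 to 9359 after LPS. Lyz2 made up most of each sum, at 6680 to 8047 CPM without stimulation and 4515 to 5248 CPM after LPS. The sums therefore do not describe each marker. On 1 scale for the 12 libraries, Adgre1 rose with LPS in WT lines (mean 74.0 to 157 CPM) and Lyz2 fell (6117 to 5146 CPM). Without stimulation Adgre1 was at 42.7 CPM in ACAT1 KO lines. Of 16 markers of T cells, B cells, fibroblasts and epithelial cells, 2 were listed without stimulation, summing to 1.35 to 1.96 CPM, and 4 after LPS, summing to 5.77 to 6.31 CPM in WT and 10.6 to 12.5 CPM in ACAT1 KO lines. Of the unstimulated libraries 3, namely WT 1, WT 2 and ACAT1 KO 2, had a higher share of counts on noncoding genes on the other strand (0.0151% to 0.0238%, against at most 0.00427% in the other 9) and the 3 lowest totals. The share was summed over the 37 such genes listed without stimulation and the 24 listed after LPS, so the 2 states are compared on unlike gene sets. All LPS libraries had the lower share on their own set, so responses to LPS and the interaction also include this split where no term for it was fitted. Genotype values within each kind of library are given for unstimulated members with an unadjusted p under 0.05. Totals ran from 56948593 to 167280149 counts.

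Per kilobase of exon, the scale used here to compare genes, Casp8 was the highest of the 10 in unstimulated WT cells at 34.4 ± 0.797 CPM per kb (SD, n = 3) and in unstimulated ACAT1 KO cells at 29.6 ± 2.97 (SD, n = 3). Ripk3 followed at 14.1 ± 1.97 and Mlkl at 12.9 ± 1.47 CPM per kb in WT cells (SD, n = 3). From Ripk3 down through Mlkl, Tradd (10.4), Birc3 (9.39) and Xiap (9.30 CPM per kb) each gene overlapped the next in the 3 unstimulated WT libraries. Ripk1 (8.06) stood below Xiap without overlap, and Cflar (6.20), Fadd (5.31) and Birc2 (5.21 CPM per kb) formed the lowest group, again overlapping from one to the next. In unstimulated ACAT1 KO cells Cflar was the lowest of the 10 at 4.88 ± 0.453 CPM per kb (SD, n = 3), overlapping Birc2 above it. This rank rests on the length used, the union of annotated exons, which for Cflar is 12669 bases. In CPM, not divided by length, Cflar was at 61.9 and Birc2 at 23.7 in those cells. Which exons the cells used was not tested. After LPS the order changed: Cflar led with 86.3 ± 3.81 CPM per kb in WT and 72.6 ± 2.96 in ACAT1 KO cells (SD, n = 3), and Birc3 was next with 46.6 ± 1.91 and 49.0 ± 4.16 (SD, n = 3). Casp8 (31.3 ± 2.52) and Mlkl (31.1 ± 4.45 CPM per kb; SD, n = 3) overlapped in WT cells, whereas in ACAT1 KO cells Mlkl (27.7 ± 1.08) lay above Casp8 (21.5 ± 2.00 CPM per kb; SD, n = 3) without overlap, and Fadd was lowest in both genotypes at 4.48 and 4.62 CPM per kb. All other levels below are in CPM on one scale for the 12 libraries, and compare a gene only with itself. Ratios of counts between members, given further below, likewise compare libraries and not the levels of the genes.

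**Figure D1:**
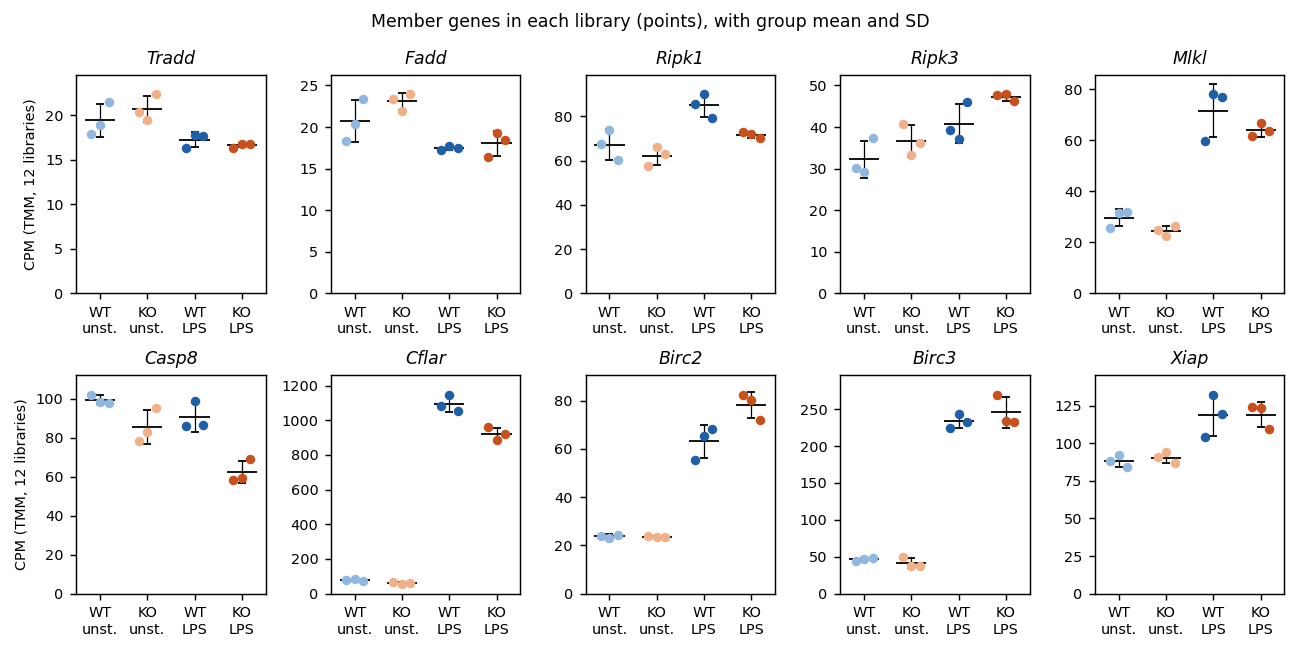
Level of each of the 10 genes in CPM (linear axis from 0) in every library, as points, for the 4 groups, with the group mean as a line and the SD as bars (n = 3). Cflar, Birc3, Birc2 and Mlkl separate by LPS in both genotypes, while Casp8 is lowest in the 3 ACAT1 KO libraries after LPS, at 58.5 to 69.0 CPM.

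LPS raised 7 of the 10 genes in both genotypes: Cflar, Birc3, Birc2, Mlkl, Xiap, Ripk1 and Ripk3. Cflar rose the most, by 3.80 (SE 0.0910) on the log2 scale in WT and 3.89 (SE 0.0913) in ACAT1 KO cells. The adaptor Fadd fell in both, and Casp8 and Tradd fell in ACAT1 KO cells. In all, 8 of 10 passed the adjusted threshold of 0.05 in WT cells and 10 of 10 in ACAT1 KO cells, where the share of all genes past it was 57.4% of 16535 in WT and 60.7% in ACAT1 KO cells. Shares of all genes were not matched to the members for level and include genes with low counts. With at least 10 counts in every library, 8897 of 14181 genes passed in WT and 9349 in ACAT1 KO cells. Of the members 7 were higher in each genotype, against 29.3% and 29.5% of all genes, and 1 and 3 were lower, against 28% and 31.2%. In these bulk libraries, less RNA per cell and fewer cells that hold it cannot be told apart. The median log2 fold change of the 10 was 0.38 in each genotype, against -0.018 and -0.026 over all genes. Of the 10, 8 in WT and 10 in ACAT1 KO cells had no overlap between the 3 LPS and the 3 unstimulated libraries, against 61% and 67.8% of all genes. A fit with the line as a block and a term for libraries high in other-strand counts called 9 in WT cells. It called 10 in ACAT1 KO cells, beside 9763 and 11355 of 16535 genes in the 2 genotypes.

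**Figure D2:**
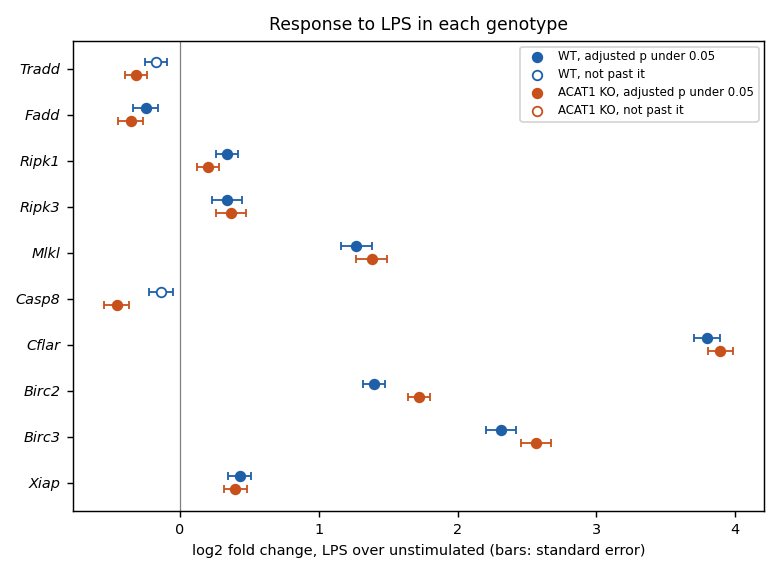
Log2 fold change from unstimulated to LPS for the 10 genes in WT (blue) and ACAT1 KO cells (orange), with the standard error as bars, from the fit of all 12 libraries. Filled points passed an adjusted p of 0.05. Cflar (3.80 and 3.89) and Birc3 (2.31 and 2.57) lie farthest to the right, and the adaptors and Casp8 lie left of 0.

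Cflar, which encodes the catalytically inactive caspase-8 relative cFLIP, was at 80.9, 83.8 and 71.1 CPM in unstimulated WT lines 1 to 3 and at 1081, 1147 and 1053 CPM after LPS. In ACAT1 KO lines it was at 68.4, 57.8 and 59.3 CPM and then at 958, 883 and 918 CPM. Every ACAT1 KO library was below every WT library of the same state, and LPS accounted for 99.2% of the sum of squares of its log2 CPM over the 12 libraries. Because Cflar and Birc3 gave the steepest responses, the 300 bases around their annotated starts (250 before, 50 after; RefSeq, GRCm38.p6) are shown, and an interferon regulatory factor (IRF) element found in Cflar is in capitals.

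Cflar, chr1:58711241-58711540, plus strand: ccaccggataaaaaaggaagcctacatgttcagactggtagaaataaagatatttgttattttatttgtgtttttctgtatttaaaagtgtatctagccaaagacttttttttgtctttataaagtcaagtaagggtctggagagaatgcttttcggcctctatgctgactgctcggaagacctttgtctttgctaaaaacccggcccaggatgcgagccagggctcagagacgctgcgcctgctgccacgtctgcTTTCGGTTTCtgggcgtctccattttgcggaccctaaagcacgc

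Birc3, chr9:7873121-7873420, minus strand: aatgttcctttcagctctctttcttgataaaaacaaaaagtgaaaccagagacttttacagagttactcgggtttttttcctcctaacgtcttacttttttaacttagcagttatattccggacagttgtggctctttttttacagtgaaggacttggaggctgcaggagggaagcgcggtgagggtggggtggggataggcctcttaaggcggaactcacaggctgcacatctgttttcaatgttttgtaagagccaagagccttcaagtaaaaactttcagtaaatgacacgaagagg

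RefSeq windows were at hand for 9 of the 10 genes, 13 windows in all, and Tradd had none. They were searched on both strands for the NF-kB consensus, which is 10 bases long, and for the IRF element GAAANNGAAA. The capitals in Cflar are the reverse strand of that element, at bases 257 to 266 of the window, just after the RefSeq start. The gene bounds given further below are those of GENCODE, whose start for Cflar lies just past the element. The second window of Ripk1, chr13:34002624-34002923 on the plus strand, held GAAATCGAAA at bases 246 to 255, and the first window of Xiap held the NF-kB match GGGACCCTCC at bases 273 to 282. The Birc3 window held neither. Of the 27025 genes with a window, 3.99% held the IRF element in at least 1 window and 9.55% the NF-kB consensus, and of the 32851 windows 3.44% and 8.46% did. A match in 2 and in 1 of the 9 genes describes these letters only.

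Birc3, which encodes cIAP2, was at 44.9, 47.5 and 48.7 CPM in unstimulated WT lines and at 224, 243 and 233 CPM after LPS, a rise of 2.31 (SE 0.107) on the log2 scale. In ACAT1 KO lines it was at 49.3, 37.4 and 37.4 CPM without stimulation and at 269.5, 234 and 233 CPM after LPS, a rise of 2.57 (SE 0.108). The genotypes overlapped in both states. Birc2, its neighbour on chromosome 9 that encodes cIAP1, rose from 23.9, 23.2 and 24.5 CPM to 55.4, 65.4 and 68.3 CPM in WT lines, by 1.40 (SE 0.0792). In ACAT1 KO lines it rose from 24.0, 23.5 and 23.6 CPM to 82.4, 80.3 and 72.1 CPM, by 1.72 (SE 0.0796). Birc2 thus lay between 23.2 and 24.5 CPM in the 6 unstimulated libraries and ended higher in each ACAT1 KO line than in any WT line. Xiap rose by 0.43 (SE 0.0835) in WT and 0.40 (SE 0.0833) in ACAT1 KO cells, reaching 104, 132 and 119 CPM and 124, 124 and 109.7 CPM in the 2 genotypes, which overlapped.

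Mlkl, the pseudokinase that disrupts the membrane in necroptosis, was at 25.7, 31.4 and 31.8 CPM in unstimulated WT lines and at 59.7, 77.9 and 77.0 CPM after LPS, a rise of 1.27 (SE 0.111) on the log2 scale. In ACAT1 KO lines it went from 24.9, 22.5 and 26.2 CPM to 61.6, 66.5 and 63.6 CPM, a rise of 1.38 (SE 0.112). The library numbered WT 1 was the lowest of its group in both states and kept the genotypes overlapping. The kinases moved less: Ripk3 rose by 0.34 (SE 0.110, adjusted p = 0.0192) in WT and 0.37 (SE 0.109, adjusted p = 0.0122) in ACAT1 KO cells, and Ripk1 by 0.34 (SE 0.0797, adjusted p = 0.00325) and 0.20 (SE 0.0796, adjusted p = 0.0431). The rise of Ripk3 in WT cells did not pass the threshold without unstimulated WT 1 (0.27, adjusted p = 0.0963), unstimulated WT 2 (0.27, adjusted p = 0.0758) or LPS WT 3 (0.25, adjusted p = 0.0905), nor with only the 6 WT libraries in the fit (0.31, adjusted p = 0.0617). That of Ripk1 in ACAT1 KO cells lost its call without unstimulated ACAT1 KO 1 (0.15) or 3 (0.21), LPS ACAT1 KO 1 (0.19), 2 (0.20) or 3 (0.22), or LPS WT 1 (0.20), at adjusted p of 0.0517 to 0.156.

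The adaptors and Casp8 did not rise. Fadd, which joins death receptors to caspase-8, fell by 0.25 (SE 0.0897, adjusted p = 0.0329) in WT and fell by 0.35 (SE 0.0895, adjusted p = 0.00460) in ACAT1 KO cells. In WT cells its call was lost without unstimulated WT 2 or 3 or any of LPS WT 1, 2 and 3, where it was from -0.26 to -0.15 at adjusted p of 0.0558 to 0.152. Tradd, the adaptor of TNF receptor 1, fell by 0.32 (SE 0.0784, adjusted p = 0.00413) in ACAT1 KO cells and was at -0.17 (SE 0.0786, adjusted p = 0.0829) in WT cells. In WT cells Tradd passed with the line as a block (adjusted p = 0.0446) and without unstimulated WT 1 (-0.25, adjusted p = 0.0270). It also passed with the block and the term for other-strand counts (-0.27, adjusted p = 0.0109). Casp8 fell by 0.46 (SE 0.0876, adjusted p = 6.96e-04) in ACAT1 KO cells and differed by -0.14 (SE 0.0873, adjusted p = 0.203) in WT cells. With upper quartile scaling, which moved the median of all genes to -0.23 in WT and -0.17 in ACAT1 KO cells, no member changed direction, but 5 were called higher and 3 lower in each genotype: Ripk1 and Ripk3 were no longer called in either, and Casp8 and Tradd were called lower in WT cells too. Over all genes that scaling gave 3628 higher and 6681 lower calls in WT cells, against 4850 and 4638, and 3921 and 6560 in ACAT1 KO cells, against 4871 and 5166.

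The direct comparison of the responses, the interaction of genotype and LPS, called none of the 10 by edgeR's quasi-likelihood test, where 0.187% of all genes (31 of 16535) passed. Birc2 (0.32, SE 0.110, unadjusted p = 0.0125, adjusted p = 0.336) and Casp8 (-0.32, SE 0.124, unadjusted p = 0.0240, adjusted p = 0.431) were the 2 members with an unadjusted p under 0.05, a level reached by 8.92% of all genes. DESeq2 and the fit with the line as a block also called 0 of the 10, although the block raised the count over all genes from 31 to 288. With the term for other-strand counts added to the block, 0 of the 10 and 457 of all genes were called. The response of Casp8, past the threshold in ACAT1 KO and not in WT cells, was therefore not shown to differ between them.

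Without stimulation, ACAT1 KO and WT lines differed in none of the 10 genes at an adjusted p of 0.05, the level passed by 1.91% of 16440 genes. DESeq2 called 1, Cflar. The study's threshold, an unadjusted p under 0.05, was applied here to edgeR's quasi-likelihood test and not to the study's own test. At it 3 members passed, all lower in ACAT1 KO lines, where 19.7% of genes passed and 9.93% passed as lower. They were Cflar at -0.34 (SE 0.0903, adjusted p = 0.113), Mlkl at -0.26 (SE 0.102, adjusted p = 0.221) and Casp8 at -0.21 (SE 0.0812, adjusted p = 0.226) on the log2 scale. That count hung on single libraries: it was 2 higher and 1 lower without unstimulated WT 3, 1 lower without WT 2 or ACAT1 KO 2, 2 lower without WT 1 or ACAT1 KO 1, and 3 lower without ACAT1 KO 3. Within the 3 libraries with more other-strand counts the difference in mean log2 CPM was -0.51 for Cflar, -0.34 for Mlkl and -0.27 for Casp8, and within the other 3 it was -0.16, -0.31 and -0.18. Those values rest on 1 line against 2 and have no test. The other 7 members lay between -0.18 (Birc3) and 0.19 (Ripk3). Birc2 was closest to 0, at -0.0038 with an SE of 0.0576. Casp8 and Cflar had no overlap between genotypes, both lower, against 13.3% of all genes.

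After LPS, 4 of the 10 differed between genotypes, where 15.1% of 16483 genes did: Casp8, Ripk1 and Cflar were lower and Birc2 was higher in ACAT1 KO lines. Of all genes 9.12% were called lower and 5.93% higher. The median over the 10 was -0.0031 and over all genes -0.0041. Casp8 had the largest difference, -0.52 on the log2 scale (SE 0.0865, adjusted p = 0.00952). It was at 85.8, 98.8 and 86.7 CPM in WT and at 58.5, 59.5 and 69.0 CPM in ACAT1 KO lines, without overlap, and it passed the threshold without each of the 6 libraries in turn, at adjusted p of 0.0103 to 0.0454. Before LPS it had been at 102, 98.5 and 97.8 CPM in WT and at 78.6, 83.1 and 95.2 CPM in ACAT1 KO lines.

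**Figure D3:**
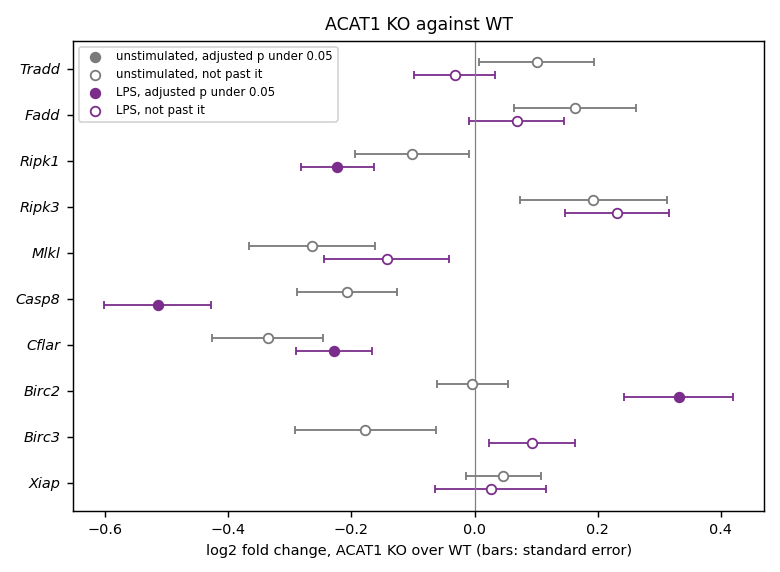
Log2 fold change of ACAT1 KO over WT for the 10 genes without stimulation (grey) and after LPS (purple), with the standard error as bars, from the fit of the 6 libraries of each state. Filled points passed an adjusted p of 0.05: Casp8 (-0.52), Cflar (-0.23), Ripk1 (-0.22) and Birc2 (0.33), all after LPS.

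The other 3 calls were near the threshold. Ripk1, the scaffold kinase, was at 85.5, 89.9 and 79.3 CPM in WT and at 72.9, 72.0 and 70.2 CPM in ACAT1 KO lines after LPS, a difference of -0.22 (SE 0.0588, adjusted p = 0.0400). Birc2 differed by 0.33 (SE 0.0884, adjusted p = 0.0411), and Cflar by -0.23 (SE 0.0624, adjusted p = 0.0449), with the levels given above, and none of the 3 overlapped between genotypes. Ripk1 and Birc2 each kept the call only without LPS WT 3 (adjusted p = 0.0320 and 0.0354). Without LPS WT 1, LPS WT 2 or any of LPS ACAT1 KO 1, 2 and 3, Ripk1 was at -0.23 to -0.18 (adjusted p from 0.0607 to 0.135) and Birc2 at 0.25 to 0.39 (adjusted p from 0.0519 to 0.126). Cflar lost the call without any of the 6 libraries, LPS WT 1, 2 and 3 and LPS ACAT1 KO 1, 2 and 3, at -0.26 to -0.19 (adjusted p from 0.0565 to 0.158). It also lost it with relative log expression scaling (adjusted p = 0.0514), upper quartile scaling (0.0698) and all 12 libraries in 1 fit (0.0661), and Ripk1 lost it with upper quartile scaling (0.0581) and all 12 libraries (0.0665).

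Ripk3, the kinase that phosphorylates MLKL, was at 39.4, 37.1 and 46.0 CPM in WT and at 47.8, 47.9 and 46.2 CPM in ACAT1 KO lines after LPS, without overlap, a difference of 0.23 (SE 0.0841, adjusted p = 0.103). It passed the threshold only without LPS WT 3, the highest WT line (0.34, adjusted p = 0.0199). Mlkl differed by -0.14 (SE 0.101, adjusted p = 0.378) and passed only without LPS WT 1, the lowest WT line (-0.26, adjusted p = 0.0248). Birc3, Fadd, Tradd and Xiap differed by 0.093, 0.069, -0.032 and 0.026, with SE of 0.0657 to 0.0897. In all, 2 members (Birc2, Ripk3) were higher without overlap and 3 (Casp8, Ripk1, Cflar) lower, against 15.2% and 21.7% of all genes.

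Casp8 and Cflar lie side by side on the plus strand of chromosome 1 of GRCm38, Cflar from 58711508 to 58758884 and Casp8 from 58795374 to 58847503, and both were lower in ACAT1 KO lines, so the genes around them were read too. This window was looked at after the values were seen. Of 47 other genes tested within 2 Mb to either side of Casp8, Casp8 and Cflar left out, 42 had a negative difference after LPS (89.4%, against 50.8% of all genes) and 38 without stimulation (80.9%, against 49.3%). Their median was -0.25 after LPS and -0.27 without stimulation, with 9 called lower and 1 higher, and 3 lower and 0 higher. At 10 Mb the medians were -0.14 and -0.17, over 126 and 130 genes. Cflar (-0.23 after LPS, -0.34 without) and Casp8 without stimulation (-0.21) were thus near the median of their neighbourhood, and Casp8 after LPS (-0.52) was below it. The part of the region, or of differences between clones, in these values was not tested. Around Ripk1 on chromosome 13 the median of 25 other genes within 2 Mb was -0.18 after LPS (6 lower, 1 higher) beside its own -0.22, and around Birc2 on chromosome 9 the median of 10 other genes, Birc3 left out, was 0.0082 beside its own 0.33.

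**Figure D4:**
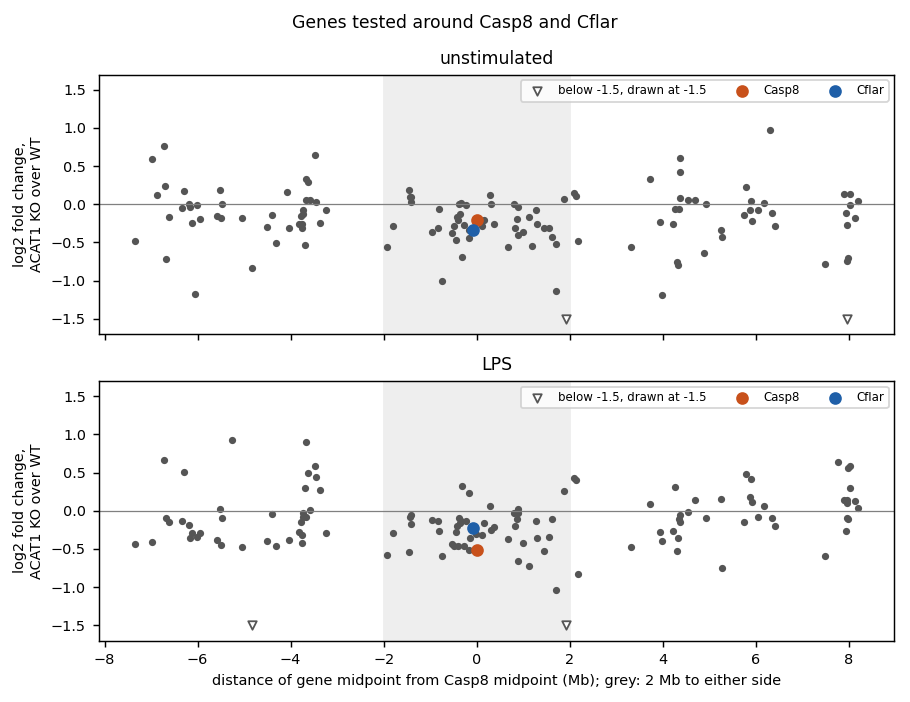
Log2 fold change of ACAT1 KO over WT for each gene tested, against its distance from Casp8 in Mb, without stimulation and after LPS. Within the grey 2 Mb to either side, 38 of 47 genes besides Casp8 and Cflar lie below 0 without stimulation and 42 of 47 after LPS, as do Casp8 and Cflar (coloured), and triangles mark genes below -1.5.

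Ratios of 2 members within a library need no scaling between libraries, and 6 were compared between genotypes in both states, 12 comparisons in all by the exact permutation test (two-sided), which cannot go below p = 0.1 with 3 lines against 3. They are ratios of counts, not divided by exon length, which is 12669 bases for Cflar and 2893 for Casp8. Each ratio therefore compares libraries, and its size or sign does not show which gene was higher. Per kb, Cflar was at 6.20 and Casp8 at 34.4 CPM in unstimulated WT cells, and at 86.3 and 31.3 after LPS. The ratio of Cflar to Casp8 counts was -0.34, -0.23 and -0.46 on the log2 scale in unstimulated WT lines and 3.66, 3.54 and 3.60 after LPS. In ACAT1 KO lines it was -0.20, -0.52 and -0.68 and then 4.03, 3.89 and 3.73. After LPS each ACAT1 KO line was above each WT line, by 0.29 in the mean (SE 0.0931, exact p = 0.1, adjusted p = 0.24). Ripk3 over Ripk1 was higher in ACAT1 KO lines after LPS, at -0.61, -0.59 and -0.61 against -1.12, -1.28 and -0.79, by 0.46 in the mean (SE 0.145). Mlkl over Ripk3 was lower in ACAT1 KO lines in both states without overlap, at -0.46 without stimulation (SE 0.135) and -0.37 after LPS (SE 0.143). Birc3 over Birc2 was lower after LPS, at -0.25 (SE 0.0887). These 5 comparisons each had the smallest p the design allows and an adjusted p of 0.24, so none passed, and the other 7 overlapped between genotypes.

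**Figure D5:**
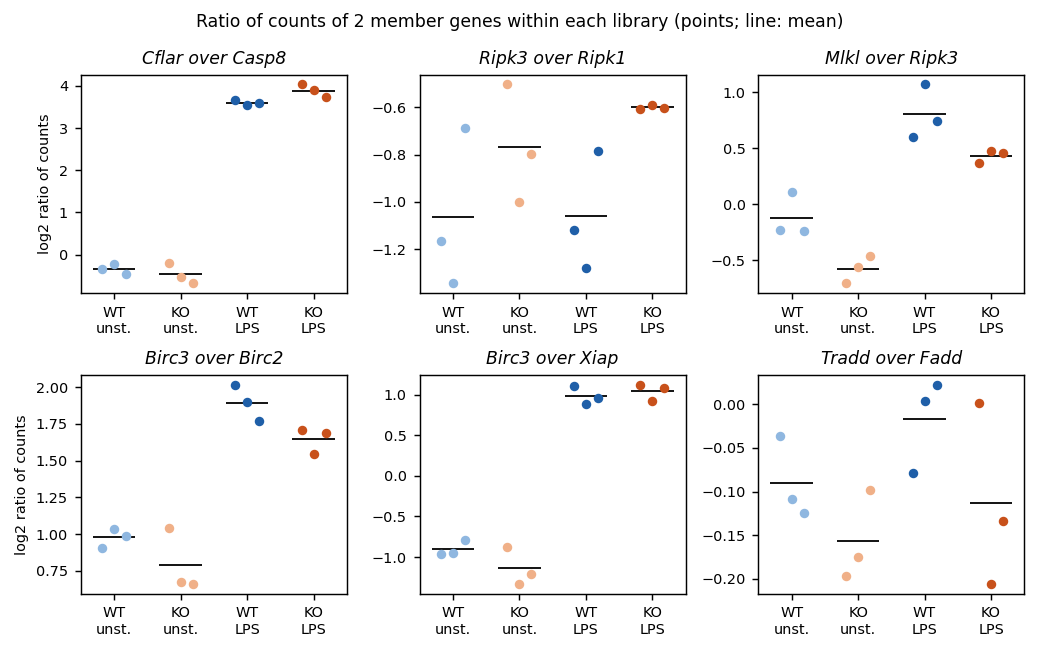
Log2 ratio of the counts of 2 members within each library (points, with the mean as a line) for 6 pairs and the 4 groups, on axes that do not start at 0 and differ between panels. Counts were not divided by exon length. After LPS the 3 ACAT1 KO lines lie above the 3 WT lines for Cflar over Casp8 and Ripk3 over Ripk1 and below them for Mlkl over Ripk3 and Birc3 over Birc2.

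Of 41 other genes of the pathways (receptors, ubiquitin ligases and deubiquitinases, checkpoint kinases, caspases, further IAP genes and pyroptosis genes), 40 were tested in each fit. Without stimulation 1 of the 40 was called, beside 1.91% of all genes. It was Tab1, an activating subunit of the kinase TAK1, lower in ACAT1 KO lines at -0.58 (SE 0.0814, adjusted p = 0.0368). It passed only without unstimulated WT 3 among the leave-one-out fits, and without unstimulated WT 1, WT 2, ACAT1 KO 1, ACAT1 KO 2 or ACAT1 KO 3 it was at -0.64 to -0.51 with adjusted p of 0.0851 to 0.128. After LPS 9 of 40 were called, 2 higher and 7 lower in ACAT1 KO lines, beside the 15.1% of all genes, and their median was -0.011.

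Among the 7 lower, Bid, the BH3 protein that caspase-8 cleaves to reach the mitochondria, had the smallest p. It was at 193, 183 and 169 CPM in WT and at 95.0, 100.1 and 108 CPM in ACAT1 KO lines after LPS, a difference of -0.83 (SE 0.0721, adjusted p = 0.00145). Birc6, a large IAP family ubiquitin ligase, was lower at -0.32 (SE 0.0539, adjusted p = 0.00981), and Gsdme, a pore-forming gasdermin, at -1.01 (SE 0.187, adjusted p = 0.0130), at 1.53 ± 0.164 CPM against 3.14 ± 0.760 (SD, n = 3). Birc6 lost the call with all 12 libraries in 1 fit (-0.34, adjusted p = 0.0972), and Gsdme without LPS ACAT1 KO 2 (-0.97) or 3 (-0.96). The 2 higher were Rbck1 (HOIL-1), a subunit of the linear ubiquitin ligase, by 0.36 (SE 0.0782, adjusted p = 0.0227), and Birc5 (survivin), by 0.46 (SE 0.121, adjusted p = 0.0395). Rbck1 lost the call without LPS WT 2 (0.35) or LPS ACAT1 KO 2 (0.30) or 3 (0.35), and Birc5 with all 12 libraries in 1 fit (0.44, adjusted p = 0.0881) and without LPS WT 2 (0.52) or LPS ACAT1 KO 1 (0.53), 2 (0.41) or 3 (0.44).

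LPS called 33 of the 40 in WT cells, 25 higher and 8 lower, beside 57.4% of all genes (29.3% higher, 28% lower), again not matched for level. In ACAT1 KO cells it called 34, 24 higher and 10 lower, beside 60.7% (29.5% higher, 31.2% lower). The 3 with the smallest p among the higher were the same in both: the inflammatory caspase Casp4 (2.77 in WT and 2.82 in ACAT1 KO cells), the death receptor Fas (3.76 and 3.18) and the kinase Mapkapk2 (1.77 and 1.78), which phosphorylates RIPK1. Among the lower they were Casp9, the initiator caspase of the apoptosome (-1.09 and -1.38), Gsdme (-2.22 and -2.49) and the caspase Casp2 (-0.59 and -0.90). The median of the 40 was 0.57 in WT and 0.35 in ACAT1 KO cells, against -0.018 and -0.026 over all genes. For the interaction 0 of the 40 were called by edgeR's quasi-likelihood test, beside 0.187% of all genes, and 11 had an unadjusted p under 0.05, beside 8.92%. DESeq2 called 5 of the 40 and 334 of 16535 genes, and the fit with the line as a block called 3 and 288.

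Over the 12 libraries, the genes whose log2 CPM followed each member most closely were named for the 4 members called between genotypes, out of 11960 genes with a mean of at least 1 CPM. They share the libraries and the large step at LPS, and the values are descriptions. Ripk2 (Pearson's r = 0.999) and Pik3r5 (0.998) were nearest to Cflar, Ktn1 and Lacc1 (both 0.998) to Birc2, Hcfc1 (0.979) and Setd1a (0.971) to Ripk1, and Plekhb2 (0.960) and Amacr (0.949) to Casp8. Casp8 was the member for which genotype accounted for the largest share of the sum of squares, 49.2%, with 30.5% for LPS, and Ripk1 was next with 22.5% and 54.3%. For Birc3, Birc2 and Mlkl LPS took 98.8%, 97.0% and 94.1%.

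Ripk1 shares 2.89% of its exon bases with Serpinb6a on the other strand and 6.12% with Gm17084 on its own strand, and Fadd shares 6.12% with Faddos on the other strand. The counting is not stated to use strand, so reads from these stretches cannot be told apart. The other 8 members overlap no annotated exon of another gene.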

How the data were processed

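RNA-seq of 12 libraries was analysed, grouped by the genotype and treatment in their labels. Per the study's methods and the submitters' processing notes, the authors used Trimmomatic 0.33 for trimming, HISAT2 for alignment to GRCm38 and StringTie for quantification. For each state the authors deposited a table of raw counts in whole numbers. The step that gave whole counts and its use of strand are not given in the sources used here. Also deposited were log2 levels, log2 fold changes, 2 kinds of moderated score and p-values from the authors' own comparison, and these columns were left out. Once 59 and 57 repeated entries were removed, 17521 of 17544 and 17849 of 17874 genes matched GENCODE, and each gene reached 4 counts in 5 or more of its 6 libraries.

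Counts were analysed with edgeR 4.0.16 (limma 3.58.1, R 4.3.3): filterByExpr, TMM and two-sided quasi-likelihood tests, with Benjamini-Hochberg adjustment over all genes tested and a call at an adjusted p under 0.05. Genotypes were compared within each state over 6 libraries, and LPS in each genotype and the interaction over 12 libraries and the genes of both tables. CPM were TMM-scaled over the 12 libraries, log2 CPM used a prior count of 2, and lengths were the union of annotated exons. Totals of 56948593 to 167280149 counts make the spread between libraries of a group the limit on precision. The tests set each difference against an estimate of that spread. Pairs of libraries of a group differed by more than sampling noise (chi-square per degree of freedom of 34.1 to 287). The script was tested on simulated data, with 200 genes changed by 1 on the log2 scale in each comparison. Of these, 102 were recovered for genotype in unstimulated cells, 150 for genotype after LPS and 100 for the interaction. Of the calls in these comparisons, 5.56%, 11.2% and 9.09% were false. For LPS, 125 were recovered in WT and 117 in ACAT1 KO cells, with 3.85% and 5.65% of calls false. Genotype calls after LPS near the threshold and the lack of interaction calls among the members have these limits.

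Replicate numbers were taken to pair unstimulated with LPS libraries in the fits with a block only, and the main fits used no pairing. Deviations from group means of same-numbered libraries of a genotype correlated from 0.14 to 0.45 over 11961 genes. Those of other-numbered libraries correlated from -0.34 to 0.098. The labels do not state this pairing.

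The members, the list of 41 other pathway genes and the markers were chosen with earlier results of these data known. Named genes are the 10 members, Acat1, 4 LPS-induced genes, the 3 called pathway genes with the smallest p per comparison and direction, and the 2 genes nearest to each member called between genotypes. Alternatives were DESeq2 1.42.0, relative log expression and upper quartile scaling, no filter or at least 10 counts in every library, a replicate block, a batch term for unstimulated libraries high in other-strand counts, other libraries in the fit, each library left out in turn and, for ratios, 1 count added to both genes.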

Additional observations from a re-analysis of the deposited data

How the results depend on the processing

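Unstimulated genotype calls depended on the method: against 314 genes, DESeq2 gave 1721, a minimum of 10 counts in every library 475, the replicate block 151, the term for the 3 libraries with more other-strand counts 664 and all 12 libraries in 1 fit 1353, and leaving out each library gave 7 (without unstimulated WT 2) to 522 (without unstimulated WT 3), each of the 6 moving the count by over 1.5 times. Members called there were 1 with DESeq2 and 1 with all 12 libraries (Cflar in both), and pathway genes called were 7, 0 (block), 3 (term) and 4 (12 libraries), and 0 to 4 with libraries left out. After LPS, the 4 members called became 3 with relative log expression (without Cflar), 2 with upper quartile scaling (without Cflar and Ripk1), 2 with the replicate block (without Cflar, adjusted p = 0.0733, and Birc2, adjusted p = 0.0691), 2 with all 12 libraries (without Cflar and Ripk1) and 1 to 4 with a library left out, while genes called ran from 867 to 2245 and pathway genes from 2 to 10. For the interaction, DESeq2 gave 334 genes, the replicate block 288 and the block with the term 457, against 2 to 41 with a library left out, and pathway genes were 5, 3 and 4, and 0 in each leave-one-out fit. The replicate numbers do not pair WT with ACAT1 KO libraries (correlations of -0.41 to 0.75), so the block between genotypes joins libraries of different lines. Unstimulated WT 2 and ACAT1 KO 2 were both high in other-strand counts, and unstimulated WT 3 and ACAT1 KO 3 both low. Each of these pairs correlated at 0.75, so without stimulation the block overlaps with that split.

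Directions turned only for values near 0, in 14 cases and none past the threshold. Birc2 without stimulation was 0.0025 with no filter on low counts, and -0.027 to 0.017 with a library left out. Xiap after LPS ran from -0.058 to 0.11 with a library left out. For the interaction, Xiap was 0.028 with upper quartile scaling, and with a library left out Xiap ran from -0.12 to 0.053, Mlkl from -0.0048 to 0.24, Ripk3 from -0.096 to 0.12 and Fadd from -0.20 to 0.0092. No ratio of members changed direction. In 1178 comparisons of single genes with an alternative the direction and the side of the threshold stayed, in 59 a call was lost and in 14 one was gained. Casp8 after LPS passed under all 7 other settings and all 6 leave-one-out fits. The members had at least 1241 counts in every library, so counting error was small beside the spread between libraries of a group, in which differences between clones and between libraries cannot be told apart.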
